A study of Mus musculus with 4 samples.

Results

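The genes described here are the neighbours of Nkx2-5 on mouse chromosome 17. They are the protein-coding genes whose start lies within 5 Mb on either side of the Nkx2-5 start, between positions 21838664 and 31838664 of GRCm38, with at least 10 counts in at least 2 of the 4 libraries. Nkx2-5 itself, 1 other gene and the genes of ribosomal proteins and respiratory complex I were left out by name. Of 247 protein-coding genes in the window, 10 were left out by name and 82 were below the count minimum, 35 of these with a count of 0 in every library. This left 155 members, out of 12929 protein-coding genes that met the same minimum on all chromosomes and 38293 genes in the deposited table. Position and a count minimum chose the members, and no test of the groups was used. The rule was written with earlier results of these data known, and its minimum could be met by counts in 1 group alone.

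Polyadenylated RNA was sequenced from the ventricles of single mouse embryos at E12.5, with atria and valve region removed. All embryos came from litter 6 on a C57BL/6 background and were matched by somite number. The 2 knockout embryos (cKO, replicates 2 and 3) had the genotype Hif1alpha flox/flox; Nkx2.5 Cre/+, in which Cre recombinase sits on 1 of the 2 copies of the Nkx2-5 locus, and the 2 control embryos (replicates 2 and 3) were Hif1alpha flox/flox without Cre. Total expected counts ranged from 8561687 to 19801300, the highest in cKO replicate 3. That library was also the only male, with Ddx3y at 101 CPM (counts scaled to the library total and by TMM) and Xist at 2.11, against 1754 to 2097 for Xist in the other libraries. All 7 cardiomyocyte markers were detected and none was called. Their summed level was 28810 and 27730 CPM in cKO and 30700 and 29160 CPM in control, without overlap. The summed level of 4 smooth muscle markers was 801 and 922 CPM in cKO and 1234 and 1233 CPM in control. That of 6 endothelial and endocardial markers was 964 and 884 against 1027 and 1083 CPM. Both were also without overlap, with no marker called or at 0 in all libraries. Of all genes tested, 18.8% were lower in cKO without overlap. The 6 erythroid markers summed to 1801 and 4190 CPM in cKO and 3424 and 3801 CPM in control, the 5 of cushion mesenchyme to 380 and 571 against 399 and 606 CPM, and the 5 of macrophages and other blood cells to 29.0 and 31.8 against 25.8 and 65.1 CPM, all overlapping. The part of these cell types in the members' values was not tested.

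Nkx2-5 encodes a homeodomain transcription factor of cardiac precursors and heart muscle. A Cre placed in this locus is inherited together with the stretch of chromosome on which it was made, so the neighbouring genes travel with it until recombination separates them. The neighbours belong to many pathways and share their position, not a function. No group carried Cre without floxed Hif1a, so the Cre, the chromosome segment it sits on and the loss of Hif1a cannot be told apart for any gene below. The mouse strain in which the Cre allele was made is not given in the sources used here.

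Nkx2-5 (ENSMUSG00000015579, chr17:26838664-26845009, minus strand) stood at 44.3 and 42.1 CPM in cKO replicates 2 and 3 and at 55.9 and 64.95 CPM in control replicates 2 and 3. Both cKO values were lower, with a log2 fold change of -0.49 ± 0.10 (SE) and an adjusted p of 0.153 by edgeR's quasi-likelihood test, above the threshold of 0.05. Hif1a, the oxygen-regulated subunit of HIF-1, stood at 716 and 663 CPM in cKO and 530 and 552 CPM in control (adjusted p = 0.317). The floxed stretch is not counted on its own in these data, so the Hif1a value is no check of the deletion.

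Among the 155 members, 3 were called lower in cKO and none higher: Atp6v0c, Rnps1 and Hmga1. Each has a near-identical copy on another chromosome, and each copy was counted only in the cKO libraries. The same was true of Glo1, the member with the highest cKO level relative to control among those with more than 100 CPM. A read of 75 bases that spans no differing base fits both places equally well. For 3 of these genes and their copies, coding stretches picked to hold differing bases are shown, where a read can be told apart. Sequences are from GENCODE M21 transcripts on GRCm38, 5′ to 3′ on the coding strand, with the bases that differ between gene and copy in capitals. The Atp6v0c stretch lies in exon 2 of 3 (chr17:24164822-24164881, minus strand) and that of Atp6v0c-ps2 at chr6:37806166-37806225 (plus strand). For Rnps1 it lies in exon 7 of 9 (chr17:24422169-24422228, plus strand) and for Gm9825 at chr6:7982855-7982914 (minus strand). For Glo1 it lies in exon 3 of 6 (chr17:30600093-30600152, minus strand) and for Gm13443 at chr2:35340603-35340662 (plus strand).
Atp6v0c: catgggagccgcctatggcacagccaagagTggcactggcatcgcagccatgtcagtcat
Atp6v0c-ps2: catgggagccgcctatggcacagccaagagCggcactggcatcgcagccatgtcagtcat
Rnps1: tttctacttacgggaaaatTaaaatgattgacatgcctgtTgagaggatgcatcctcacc
Gm9825: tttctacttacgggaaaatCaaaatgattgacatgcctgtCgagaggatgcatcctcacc
Glo1: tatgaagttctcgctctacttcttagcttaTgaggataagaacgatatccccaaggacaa
Gm13443: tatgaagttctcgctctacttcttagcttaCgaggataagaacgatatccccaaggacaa

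Counted from base 1 of the gene's coding sequence, with the gene's base first, Atp6v0c differed from its copy at 1 of 465 coding bases, T111C. Rnps1 differed at 5 of 843 aligned coding bases, C243A, C332T, T561C, T582C and C756T. Glo1 differed at 3 of 552, G9A, T75C and T225C. The 321 coding bases of Hmga1 and Hmga1b were identical, so their transcripts can be told apart only outside the coding sequence. Atp6v0c-ps2, Gm9825 and Gm13443 are annotated as processed pseudogenes, which are intronless copies of a spliced transcript, and Hmga1b as a protein-coding gene.

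Atp6v0c (ENSMUSG00000024121, chr17:24163866-24169702, minus strand) encodes the proteolipid c subunit of the vacuolar proton pump and starts 2.675 Mb below Nkx2-5. It stood at 80.9 and 85.3 CPM in cKO replicates 2 and 3 and at 168 and 162 CPM in control replicates 2 and 3. The cKO libraries were near each other and the groups were far from overlapping, with means of 83.1 ± 3.09 against 165 ± 4.17 CPM (SD, n = 2 each). This gave a log2 fold change of -0.99 ± 0.08 (SE; adjusted p = 0.00144, edgeR's quasi-likelihood test). Atp6v0c-ps2 on chromosome 6 (ENSMUSG00000080242, chr6:37806086-37806550) had 783 and 1714 counts in cKO and 0 in both controls, at least 241-fold higher against a floor of 3 counts per library. The copy took 49.5% and 50.2% of the pair's counts in the cKO libraries. Gene and copy together stood at 160.1 and 171 CPM in cKO and 168 and 162 CPM in control, which overlapped. The log2 fold change of the sum was 0.01 ± 0.08 (adjusted p = 0.993).

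Rnps1 (ENSMUSG00000034681, chr17:24414565-24425901, plus strand) encodes an RNA-binding protein of the exon junction complex and starts 2.424 Mb below Nkx2-5. Its level was 126 and 136 CPM in cKO and 184 and 202 CPM in control, with no overlap. The log2 fold change was -0.56 ± 0.09 (adjusted p = 0.0419). This call did not hold when any 1 library was left out (adjusted p from 0.0625 to 0.195). Gm9825 (ENSMUSG00000096403, chr6:7982541-7983383) had 527 and 1013 counts in cKO and 0 in both controls, at least 152-fold higher, and took 29.7% and 27.2% of the pair. The sum stood at 179 and 187 CPM in cKO and 184 and 202 CPM in control, with overlapping groups and a log2 fold change of -0.08 ± 0.08 (adjusted p = 0.888).

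Hmga1 (ENSMUSG00000046711, chr17:27556497-27563674, plus strand) encodes an architectural chromatin protein that binds AT-rich DNA, and was the only called gene above Nkx2-5, at 0.718 Mb. It stood at 74.5 and 81.6 CPM in cKO and 135 and 155 CPM in control, again without overlap, for a log2 fold change of -0.89 ± 0.10 (adjusted p = 0.00631). Hmga1b (ENSMUSG00000078249, chr11:120762794-120764419) had 269 and 678 counts in cKO and 0 in control, at least 89.3-fold higher, and took 26.7% and 29.4% of the pair. Here the sum remained lower in both cKO libraries, at 102 and 116 CPM against 135 and 155 CPM. The log2 fold change of the sum was -0.42 ± 0.10 and did not pass (adjusted p = 0.304).

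Glo1 (ENSMUSG00000024026, chr17:30584936-30626871, minus strand) encodes glyoxalase 1, which detoxifies methylglyoxal formed as a by-product of glycolysis, and starts 3.746 Mb above Nkx2-5. It stood at 159 and 163 CPM in cKO and 122 and 111 CPM in control, with no overlap, a log2 fold change of 0.47 ± 0.08 and an adjusted p of 0.0774. DESeq2 called it higher (adjusted p = 0.00809). Gm13443 (ENSMUSG00000075391, chr2:35340409-35340963) had 175 and 316 counts in cKO and 0 in control, at least 49.0-fold higher, and took 10.0% and 8.88% of the pair. Because the copy was counted only in cKO, adding it could only raise the difference. The sums were 177 and 179 CPM against 122 and 111 CPM, with a log2 fold change of 0.61 ± 0.08 (adjusted p = 0.0232, edgeR's quasi-likelihood test). The gene span of Glo1, introns included, also overlaps that of Dnah8 on the opposite strand by 2518 bases, and the library kit does not mark strand. The length of shared exon was not measured. Expected counts of Dnah8 were whole numbers in every library, and those of Glo1 in both controls.

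**Figure D1:**
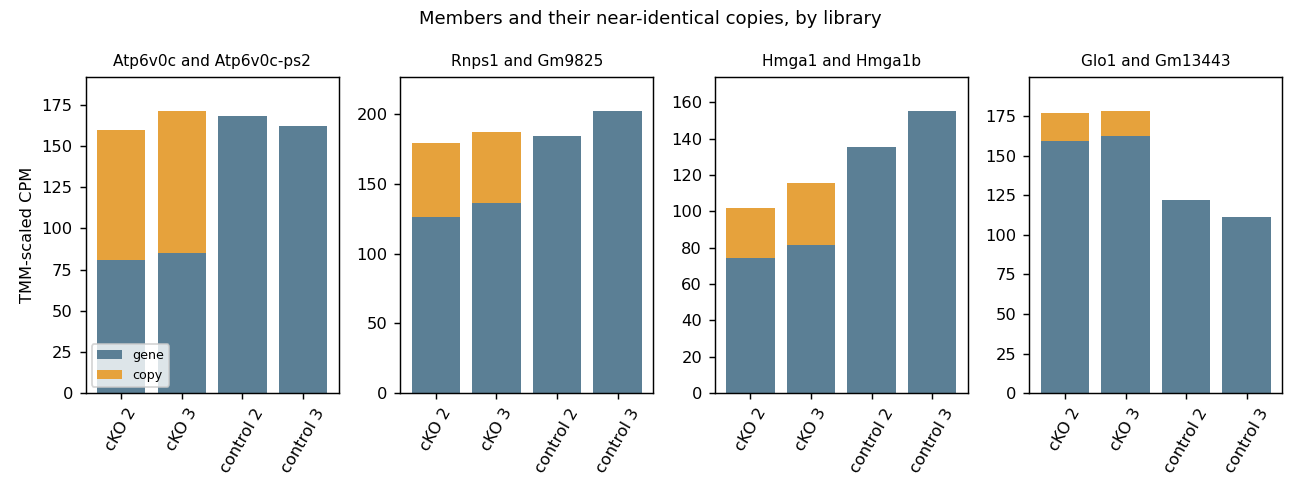
TMM-scaled CPM of 4 members (blue) with their near-identical copies stacked on top (orange) in each library. The copies appear only in the 2 cKO libraries; the stacked totals of Atp6v0c and Rnps1 overlap between groups, that of Hmga1 stays lower in cKO and that of Glo1 is higher.

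A near-identical copy was defined as a transcript of a separate, non-overlapping gene with at least 95% identity over at least 300 bases. Of the 155 members, 15 had one, and for 4 of these (26.7%) the copy had at least 10 counts in both cKO libraries and 0 in both controls. On chromosome 17 outside the window this held for 1 of 59 genes with a copy (1.69%), and on the other chromosomes for 1 of 1015 (0.0985%). The reverse pattern, a copy counted only in control, was seen for none of the members and for 1 gene on the other chromosomes. These shares are a description, with no test, and the read counts hold no base calls, so whether the transcripts differ in sequence between the chromosomes carrying and lacking Cre was not tested.

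No other copy of a member met the rule of counts in 1 group only. Kifc5b, a kinesin-14 motor gene, shares 96.8% identity with Kifc1 on chromosome 17, and Kifc1 took 75.7% and 76.2% of the pair in cKO and 79.8% and 78.8% in control. Zfp994, a zinc finger gene, had a copy, D10Wsu102e, that took 65.1% and 66.8% of the pair in cKO and 63.8% and 67.0% in control. In 5 of the 15 members every copy was below 10 counts in all libraries.

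The test covered 154 of the 155 members. Mapk13, a p38-family kinase gene, was the exception: its CPM was 0.708 and 0.703 in cKO and 1.06 and 1.10 in control, and its counts failed edgeR's filter. By edgeR's adjusted p, 3 of 154 members (1.95%) were lower and none higher, while 0.365% of all 13711 genes tested were called lower and 0.146% higher. At an unadjusted p under 0.05 there were 18 members (11.7%), 6 higher and 12 lower, against 6.97% of all genes. By DESeq2's test, 3 members were lower and 1, Glo1, higher, beside 0.474% and 0.226% of all genes. When near-identical copies were summed, 1 member was called higher, Glo1, and none lower, beside 0.438% of 13700 genes called in either direction. None of the 139 tested members without a copy was called by edgeR or DESeq2, and 14 of them (10.1%) had an unadjusted p under 0.05.

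Most members held nearly the same level in both groups. The median log2 fold change of the 154 tested members was -0.002, and the median of its absolute value was 0.117, beside 0.112 over all genes tested and 0.106 over protein-coding genes of the other autosomes. The difference between the 2 control libraries had a median absolute size of 0.129 on the log2 scale over the same members, and that between the 2 cKO libraries 0.095. A log2 fold change beyond 0.5 in either direction was seen in 10 members (6.49%) and in 6.37% of all genes tested. The cKO and control values did not overlap in 34 members higher in cKO and 32 lower. Among all genes 19.4% and 18.8% were of this kind, shares close to those of the members.

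The called members were spread over the window, and none of them was called with near-identical copies summed. Their copies were counted only in cKO, so summing could only raise the cKO level of these members. The share called among all genes tested was 0.51%. Of 37 tested members within 1 Mb, 1 was called (Hmga1), of 72 between 1 and 2.5 Mb 1 (Rnps1) and of 45 between 2.5 and 5 Mb 1 (Atp6v0c). The median absolute log2 fold change in these 3 intervals was 0.125, 0.092 and 0.126. Across the 154 members, absolute log2 fold change and distance had a Pearson r of 0.006 and a Spearman rho of 0.099, given as a description across genes that share the same 4 libraries. Below Nkx2-5, at lower coordinates, 99 members were tested and 2 called, and above it 55 were tested and 1 called. Protein-coding genes of chromosome 17 outside the window had a median absolute log2 fold change of 0.112, with 2 of 422 called, both higher and both below the window.

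**Figure D2:**
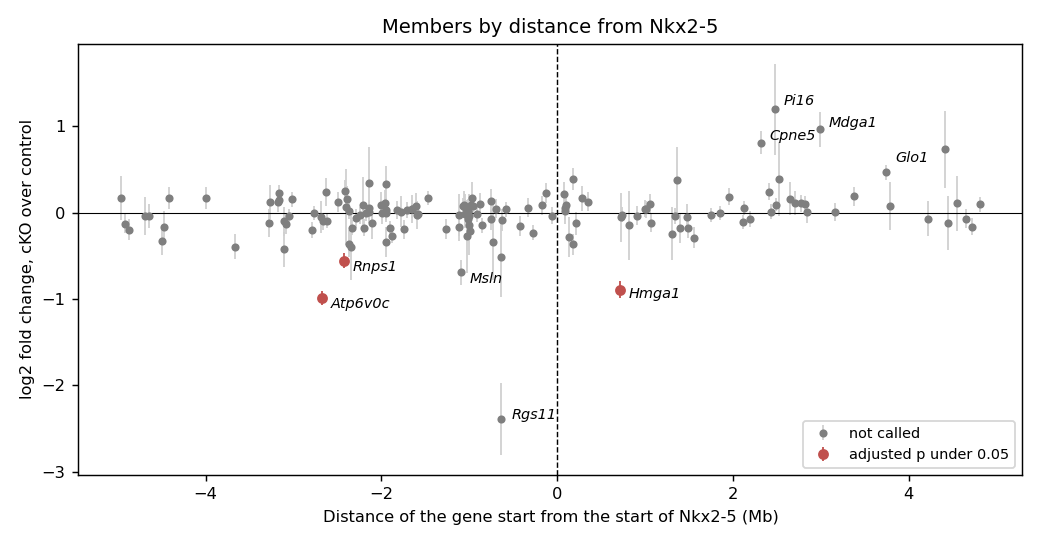
log2 fold change (cKO over control, bars: SE) of the 154 tested members against the distance in Mb of each gene's start from the start of Nkx2-5 (dashed line), with members past the threshold in red. The called genes lie at 2.675 and 2.424 Mb below and 0.718 Mb above Nkx2-5, among neighbours near 0.

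**Figure D3:**
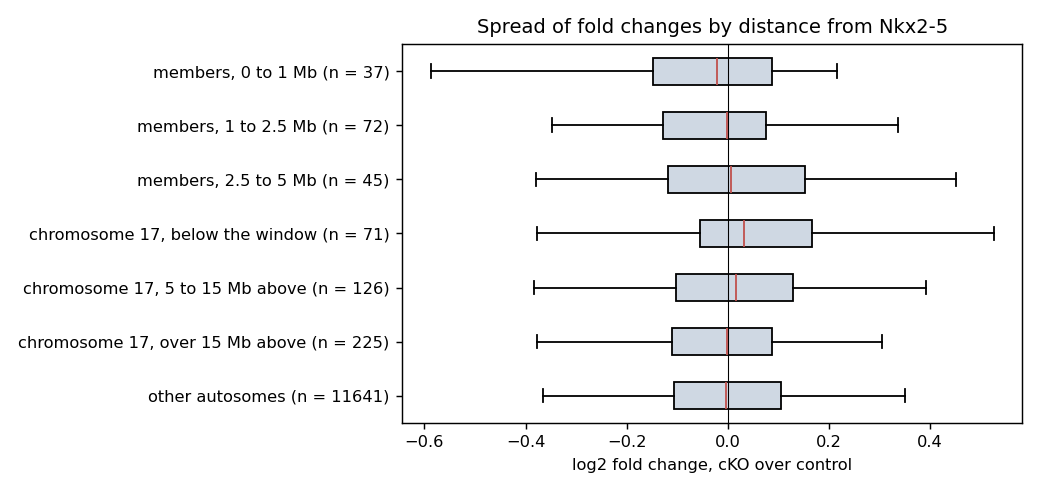
Distribution of log2 fold changes (cKO over control) in members by distance from Nkx2-5, in 3 further stretches of chromosome 17 and on the other autosomes. Boxes span the quartiles, whiskers the 5th to 95th percentiles and red lines the medians; the quartiles of all 7 sets overlap.

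The nearest members on either side of Nkx2-5 were not called. Below it, in order of approach, Dusp1 (a phosphatase of MAP kinases), Ergic1 (a protein cycling between endoplasmic reticulum and Golgi), Atp6v0e (the e subunit of the vacuolar proton pump), Crebrf (a regulator of CREB3) and Bnip1 (a SNARE protein) had log2 fold changes of 0.06, -0.23, 0.09, 0.23 and -0.04. Above it, Kifc5b, Phf1 (a Polycomb-associated chromatin reader), Cuta and Zbtb9 had values of 0.21, 0.01, 0.06 and -0.28. Their SEs lay between 0.08 and 0.24. Ergic1, the abundant one, stood at 155 and 149 CPM in cKO and 170 and 187 CPM in control, which did not overlap (adjusted p = 0.625). Bnip1, 0.058 Mb from Nkx2-5, stood at 29.9 and 27.9 CPM in cKO and 30.0 and 29.1 CPM in control, overlapping values. The gene spans of Phf1 and Cuta, introns included, overlap on opposite strands by 4090 bases, and those of Dusp1 and Ergic1 by 640 bases. Reads in shared exons cannot be assigned by strand, and the length of shared exon was not measured. The expected counts of Phf1, Cuta, Dusp1 and Ergic1 were whole numbers in every library.

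Several members with larger differences did not pass. Rgs11, a regulator of G protein signalling that starts 0.636 Mb below Nkx2-5, had 4 and 14 counts in cKO and 27 and 28 in control, or 0.405 and 0.703 against 3.19 and 3.09 CPM. It had the lowest log2 fold change of all members, -2.39 ± 0.42, on few counts (adjusted p = 0.0656), and was below the level the rule for named genes asks for, so it was chosen after its values were seen. Msln, which encodes mesothelin, a surface protein of the mesothelium and epicardium, stood at 12.7 and 11.7 CPM in cKO and 18.4 and 20.8 CPM in control. The groups were apart, at -0.69 ± 0.14 on the log2 scale, without passing the test (adjusted p = 0.137). Of the 5 epicardial markers 1 was called, Krt19, beside 0.51% of all genes tested. The direction of the Krt19 call is not given here. The summed level of the 5 markers was 311 and 229 CPM in cKO and 283 and 321 CPM in control, overlapping, with none at 0. The part of the number of epicardial cells in the Msln value was not tested, and in whole tissue fewer cells of a type and less RNA per cell cannot be told apart. Paqr4, a membrane protein of the progestin and adipoQ receptor family, stood at 6.98 and 6.33 CPM in cKO and 8.16 and 9.59 CPM in control (adjusted p = 0.731). Its gene span, introns included, overlaps that of Pkmyt1 on the opposite strand by 550 bases.

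On the higher side, Cpne5, a calcium-dependent phospholipid-binding copine, stood at 22.8 and 20.1 CPM in cKO and 12.1 and 12.2 CPM in control. The log2 fold change was 0.81 ± 0.14, just short of the threshold (adjusted p = 0.0571). Mdga1, a membrane-anchored immunoglobulin-domain protein, stood at 10.6 and 13.2 CPM in cKO and 5.67 and 6.62 CPM in control, for a log2 fold change of 0.97 ± 0.20 (adjusted p = 0.153). Without cKO replicate 2 it was called higher (log2 fold change 1.10, adjusted p = 0.0398). Both genes lie above Nkx2-5, at 2.317 and 2.989 Mb. Pi16, labelled in the plot by distance, stood at 1.52 and 3.52 CPM in cKO and 1.54 and 0.772 CPM in control, overlapping values with a wide spread in both groups, and did not pass (adjusted p = 0.708).

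The adjacent genes Ggnbp1 and Bak1 had opposite signs. Ggnbp1, a gametogenetin-binding protein gene, stood at 22.9 and 20.2 CPM in cKO and 16.1 and 16.6 CPM in control (log2 fold change 0.39 ± 0.13, adjusted p = 0.555). Bak1, a mitochondrial pro-apoptotic protein gene, stood at 33.0 and 34.4 CPM in cKO and 38.9 and 48.2 CPM in control (-0.37 ± 0.12, adjusted p = 0.529). They lie on opposite strands, and their gene spans, introns included, overlap by 9200 bases, while Bak1 has 2407 exon bases. Reads in exons that both share cannot be assigned by strand, and the length of shared exon was not measured. Nme3, a nucleoside diphosphate kinase gene with a log2 fold change of 0.33 ± 0.21, is also uncertain. Its gene span overlaps that of Mapk8ip3 on the opposite strand by 1023 bases and that of Mrps34 on its own strand by 1003 bases. Transcripts of Nme3 and Mrps34 match at 99.8% identity over 642 bases.

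**Figure D4:**
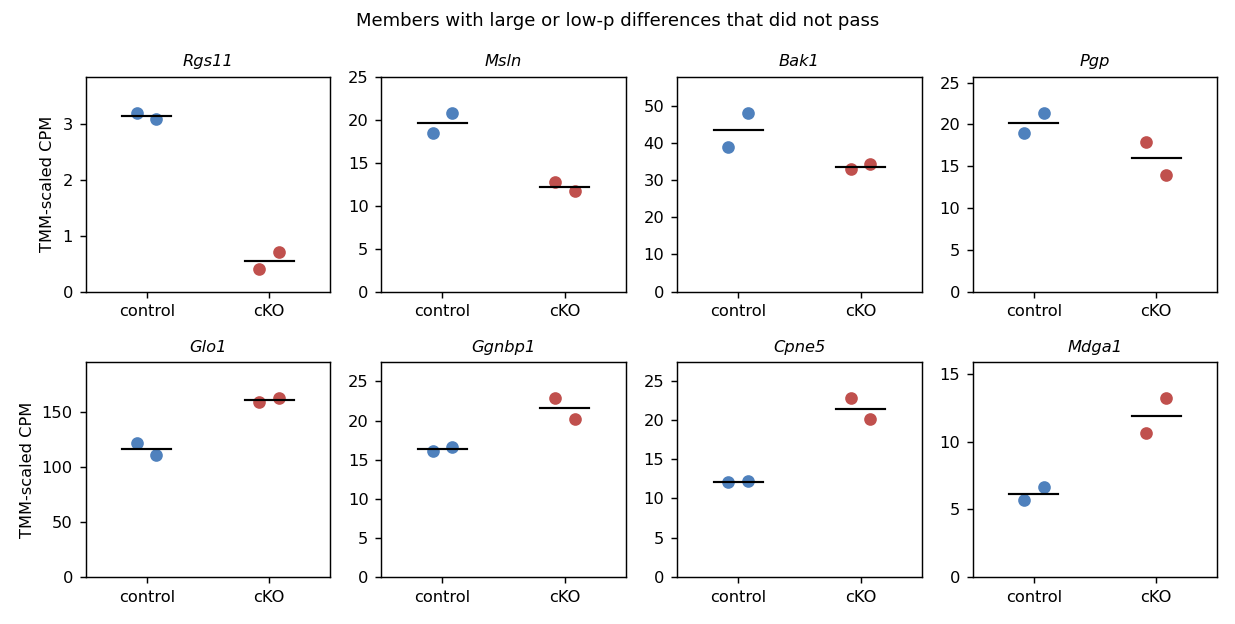
TMM-scaled CPM per library (points) and group mean (line) for 8 members with large or low-p differences that did not pass edgeR's test. The 8 were picked for their differences, and the groups do not overlap in any of them. Among all genes tested, 19.4% were higher and 18.8% lower in cKO without overlap. Rgs11 rests on values below 3.2 CPM, and Ggnbp1 and Bak1 overlap on opposite strands.

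Grouped by role, the called genes in a list were Atp6v0c and Hmga1. Neither was called with near-identical copies summed, a step that could only raise their cKO level. Of all genes tested, 0.51% were called. Among 18 tested members in mitochondria and energy metabolism, 1 was called, the proton pump gene Atp6v0c, and the median log2 fold change was 0.005, with 9 members above 0 and 9 below. Pgp, phosphoglycolate phosphatase, stood at 17.9 and 14.0 CPM in cKO and 19.0 and 21.4 CPM in control (adjusted p = 0.708). Mtch1, an outer mitochondrial membrane protein gene and the highest of this list by CPM, stood at 203 and 202 CPM in cKO and 184 and 196 CPM in control (adjusted p = 0.853). Among 13 tested DNA-binding and chromatin factors, Hmga1 was called and the median was -0.041. Cramp1l, in the same list, stood at 61.2 and 60.2 CPM in cKO and 72.2 and 74.2 CPM in control, tight pairs that did not overlap, with a log2 fold change of -0.27 ± 0.09 (adjusted p = 0.527). Tead3, a transcription factor partner of YAP, stood at 36.3 and 36.9 CPM in cKO and 46.1 and 36.6 CPM in control, where the groups overlapped.

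No member passed in the other 6 lists. The 14 tested kinases and growth signalling genes had a median of -0.004; Mapk14, the p38 alpha kinase, was level at 74.3 and 78.1 CPM in cKO and 75.1 and 77.9 CPM in control. Pdpk1, a kinase upstream of AKT, was also level (log2 fold change -0.005, SE 0.079), and Tnfrsf12a, the TWEAK receptor, had 0.23 ± 0.09 (adjusted p = 0.687). The 12 genes of cell cycle, DNA replication and repair had a median of 0.012 and ranged from -0.19 (Telo2, a chaperone of large checkpoint kinases) to 0.24 (Tedc2, a centriolar protein). The 9 genes of RNA splicing, capping and export had a median of 0.046; Ppil1, a spliceosomal cyclophilin, was at 0.24 ± 0.10, U2af1, which recognises the 3′ splice site, at 0.10 and the cap methyltransferase Cmtr1 at 0.11. Rnps1 was not in that list. The gene spans of Cmtr1 and Ccdc167, introns included, overlap on opposite strands by 18623 bases, where reads in shared exons cannot be assigned by strand. Per kilobase of exon, Hcfc1r1, Srsf3 and Srrm2 were the highest members, at 131, 66.7 and 65.4 CPM per kilobase.

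The 16 genes of membrane traffic, calcium and transport had a median of -0.070 and ranged from -0.23 (Ergic1) to 0.97 (Mdga1). Cacna1h, a T-type calcium channel subunit of embryonic heart muscle, stood at 139 and 140 CPM in cKO and 119 and 128 CPM in control, with no overlap (log2 fold change 0.17 ± 0.08, adjusted p = 0.728). The 11 genes of protein folding and turnover had a median of -0.074. Fkbp5, a co-chaperone of steroid receptors, was at -0.29 ± 0.12, Spsb3 at -0.34 ± 0.17 and Elob, which links VHL to its ubiquitin ligase, at 0.15 ± 0.09. The gene spans of Spsb3 and Eme2, introns included, overlap on opposite strands by 3667 bases, where reads in shared exons cannot be assigned by strand. The 15 zinc finger members had a median of -0.041, with 11 below 0 and 4 above. Of these, 12 lie more than 3.2 Mb below Nkx2-5. Zfp40, with the lowest value of the 15, stood at 15.6 and 13.0 CPM in cKO and 19.1 and 18.0 CPM in control (log2 fold change -0.39 ± 0.15, adjusted p = 0.642). These lists are described by counts and medians beside the median of -0.000 over all genes tested.

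**Figure D5:**
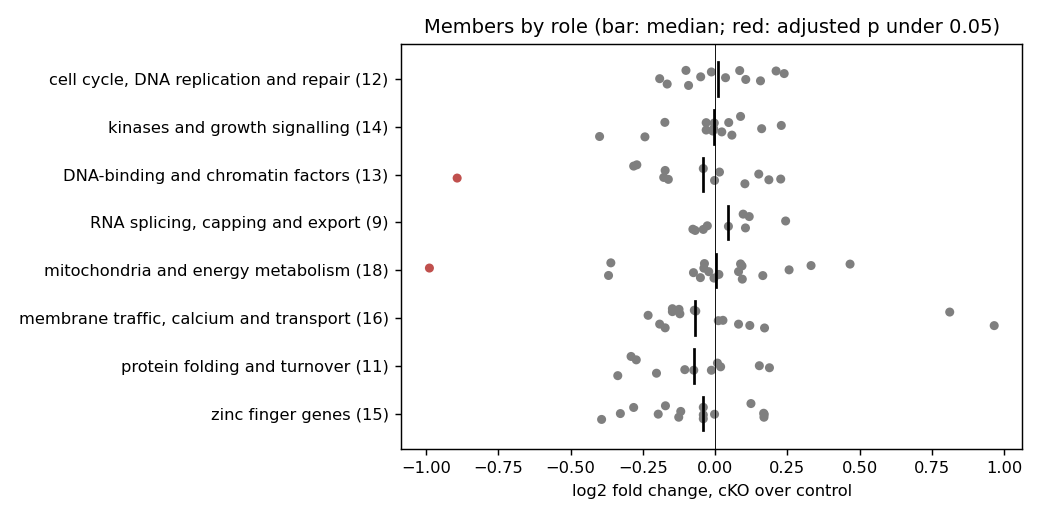
log2 fold change (cKO over control) of tested members in 8 role lists, with the number tested in parentheses, the median as a bar and called members in red. The medians lie between -0.074 and 0.046. The called points are Hmga1 and Atp6v0c, and Rnps1 is in no list. Neither point was called with near-identical copies summed, a step that could only raise their cKO level.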

How the data were processed

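The values deposited by the authors are expected counts, in which a read that fits several places is divided. RSEM 1.2.3, cutadapt 1.3, CASAVA 1.8.2 and the build GRCm38 are named, per the submitters' processing notes, and the annotation is not given in the sources used here. Libraries came from 500 ng of RNA, per the labels. Symbols and positions were taken from GENCODE M21, which matched 36345 of 38293 identifiers; identifiers without a symbol held 0.325% to 0.338% of counts. Expected counts were rounded, filtered by edgeR's defaults and TMM-scaled. The groups were compared with edgeR 4.0.16's quasi-likelihood test (R 4.3.3), adjusted by Benjamini-Hochberg over all genes tested with a threshold of 0.05. The SE was obtained from the log2 fold change and the F statistic. Folds against libraries at 0 cover counting error only. Copies were found with BLAST 2.17.0 from all GENCODE transcripts, and the sums of gene and copies were tested in the same way. Steps were tested on simulated data.

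The named members were Nkx2-5's 5 nearest on each side, all called members, the 5 largest rises and falls with at least 5 CPM, up to 4 per role list and members whose copy passed; others were chosen after their values were seen. The value of 1 gene that the rule took is not reported here. Members, lists and this rule were chosen with earlier results of these data known. Nothing in the labels says that replicate numbers mark a shared source. The p-values rest on 2 embryos per group, with the spread of each gene estimated partly from other genes. Alternatives were DESeq2 1.42.0 (size factors and test), no filter, at least 5 CPM, the replicate block, each library left out and summed copies; the median with summed copies was added after seeing the data. Genes left out by name are not analysed here, except 1 in the closing section.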

Additional observations from a re-analysis of the deposited data

How the results depend on the processing

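The number of members called lower was 3 with DESeq2 size factors, DESeq2's test and the replicate block, 2 without a filter or with a mean of at least 5 CPM, 2 with each library left out, and 0 with near-identical copies summed. The number called higher was 0, except 1 by DESeq2's test (Glo1), 1 with copies summed (Glo1) and, over the libraries left out, 0 to 1 (Mdga1 without cKO replicate 2). The median log2 fold change of the members ranged from -0.017 to 0.004. The log2 fold change of Atp6v0c changed from -0.989 to 0.006 with copies summed. Rnps1 did not pass without a filter (adjusted p = 0.0764), with at least 5 CPM (0.0507), or with any library left out. Of 429 values of 43 named members under these alternatives, 417 stayed on their side of the threshold (8 of them changed sign while uncalled), 8 kept their direction and lost their call, 3 gained one, and Atp6v0c with copies summed lost its call at a value near 0 (adjusted p = 0.993).

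With the replicate block, 3 members were lower, 0 higher and the median was -0.004; same-numbered libraries had a correlation of deviations of 0.106 across 13711 genes, from 2 pairs that no label ties together. Leaving out a library leaves 1 in its group, which is then assumed to vary like the other group. Precision differed with depth: the SE was 0.417 for Rgs11, with 4 to 28 counts per library, and 0.081 for Atp6v0c, with 800 to 1698.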

Other observations

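Outside the members, 2 other genes of chromosome 17 had a near-identical copy that was counted only in the cKO libraries, and they were chosen after their values were seen. Rps2, a ribosomal protein gene within 5 Mb of Nkx2-5 that was left out of the members by name, has the copy Rps2-ps10 on chromosome 18. Rps2-ps10 had 984 and 2177 counts in cKO and 0 in both controls, and took 17.5% and 19.7% of the pair. Rps2 and this copy together stood at 567 and 555 CPM in cKO and 495 and 502 CPM in control. Wtap, a subunit of the RNA methyltransferase complex that lies outside the window, has the copy Gm14292 on chromosome 2. Gm14292 had 46 and 125 counts in cKO and 0 in both controls, and took 4.63% and 6.15% of the pair. Wtap and Gm14292 together stood at 99.6 and 102 CPM in cKO and 101 and 90.1 CPM in control, which overlapped. On the other chromosomes, the gene with such a copy was Pgk1, with the copy Gm5537.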
